A study of Mus musculus with 2 samples.

Results

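The Ebf1+ Cd79a+ cells described here are 109 B-lineage cells among 14068 cells kept from 2 single-cell libraries of mouse bone marrow. Each kept cell had at least 500 detected genes, under 10% mitochondrial UMIs (unique molecular identifiers, the counted molecules) and no mixture of both hashtags, a mixture being at least 100 UMIs of each within 5-fold. A cell was a member where 6 neutrophil granule genes (Ltf, Camp, Ngp, S100a8, S100a9 and Lcn2) together made up under 1% of its gene UMIs and it held at least 2 UMIs of Ebf1 and at least 1 of Cd79a. That rule took 74 of 7098 kept control cells and 35 of 6970 kept cells of the library labelled Utx-deleted. The members were thus chosen by measured UMIs of Ebf1, Cd79a and the granule genes, and their levels of these genes are given as a description.

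Both libraries came from donor-derived (CD45.2+) Kit+ bone marrow of recipient mice 10 weeks after transplantation, profiled by CITE-seq, which counts messenger RNA and DNA tags on antibodies in the same droplet. The 2 groups, control and Utx-deleted, had 1 library each, so no test between them was possible, and every difference below is a difference between 2 libraries. Kdm6a encodes UTX, which removes methyl groups from lysine 27 of histone H3 and works in complexes with the methyltransferases MLL3 and MLL4. The series, by its title, asks about B-cell priming among other roles of those complexes. The labels used here give no strain, promoter, deleting enzyme or number of animals, and do not say what Hashtag1 and Hashtag2 mark. Kdm6a stood at 169 CPM (UMIs per 1000000 gene UMIs, summed over cells) in the control members, 95% exact Poisson interval 147 to 194, and at 150 CPM (116 to 189) in the members of the other library. A deletion within the gene may not be seen in counts taken at the end of the transcript, which was not tested, so these values do not check the label.

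B-cell development in the marrow starts in lymphoid progenitors in which the transcription factors E2A, EBF1 and then PAX5 turn on the B-lineage programme. Pro-B cells rearrange the immunoglobulin heavy chain locus with the RAG recombinase and add bases at the joins with terminal transferase, then place the new heavy chain beside a surrogate light chain (Igll1, Vpreb1 and Vpreb2) and the signalling chains Cd79a and Cd79b in the pre-B cell receptor. Interleukin 7 drives their expansion, small pre-B cells then rearrange a light chain, and cells with a complete receptor acquire Ms4a1 (CD20), IgD and MHC class II.

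The label of B-cell progenitors held for most but not for all of these cells. Surrogate light chain UMIs split the members without intermediates: 74 members had at least 5 UMIs of Igll1, Vpreb1 and Vpreb2 together, 35 had 0 and 0 had from 1 to 4. Among the 35 without surrogate light chain, 26 held at least 2 UMIs of Ms4a1, Ighd or H2-Aa and are called mature-marker cells here, since these genes mark B cells with a complete receptor rather than progenitors. The other 9 had neither and are described on their own.

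**Figure D1:**
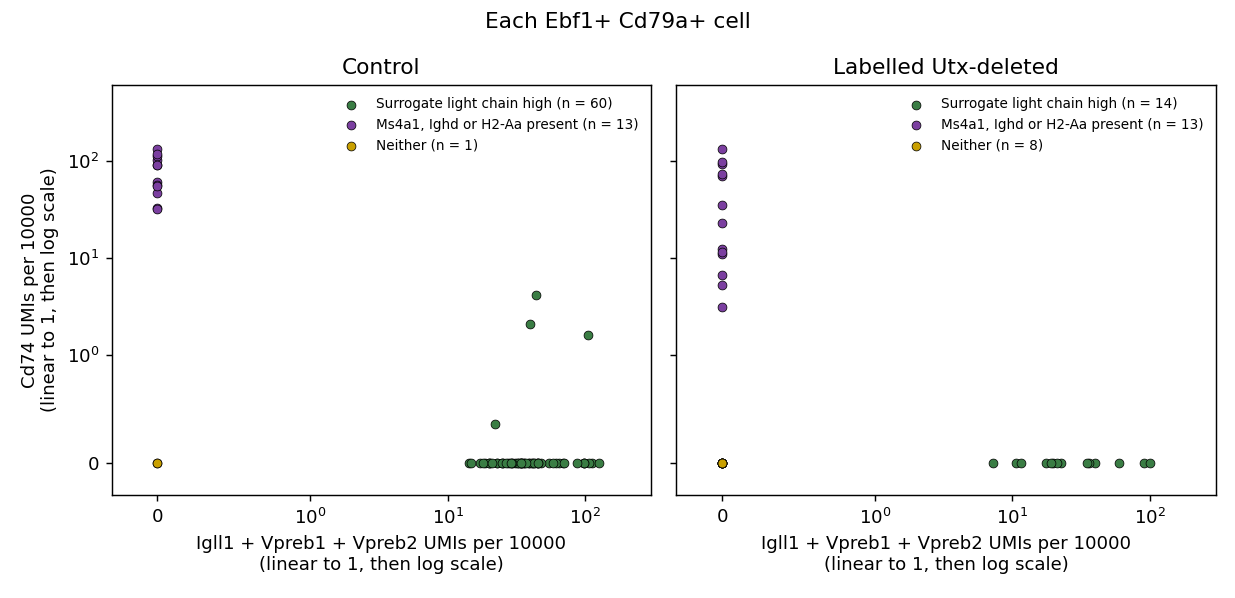
Each point is 1 Ebf1+ Cd79a+ cell, with the summed UMIs of Igll1, Vpreb1 and Vpreb2 per 10000 gene UMIs on the x axis and Cd74 UMIs per 10000 on the y axis, both linear to 1 and logarithmic above it. Surrogate light chain-high cells (60 control, 14 in the library labelled Utx-deleted) lie apart from the mature-marker cells (13 and 13), and the cells with neither (1 and 8) sit at 0 on both axes.

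The 3 surrogate light chain genes lie on chromosome 16, and the sequences around their start sites are shown because these genes define the largest stage. The windows are RefSeq promoters on GRCm38.p6, 250 bases before to 50 after the annotated start, at chr16:16863936-16864235 (minus strand) for Igll1, chr16:16869206-16869505 (minus strand) for Vpreb1 and chr16:17980315-17980614 (plus strand) for Vpreb2. Capitals mark the EBF core CCCNNGGG and the E-box form CAGCTG, each of which reads the same on both strands. Other E-box forms, such as the caggtg in the Vpreb1 and Vpreb2 windows, were not searched for and are not marked. The 2 motifs overlapped nowhere in these windows.
Igll1: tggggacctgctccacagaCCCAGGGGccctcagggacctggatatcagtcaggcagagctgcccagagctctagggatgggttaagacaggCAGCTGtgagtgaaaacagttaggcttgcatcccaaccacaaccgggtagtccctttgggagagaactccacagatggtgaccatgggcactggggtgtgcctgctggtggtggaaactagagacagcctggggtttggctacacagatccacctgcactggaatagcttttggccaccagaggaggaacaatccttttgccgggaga
Vpreb1: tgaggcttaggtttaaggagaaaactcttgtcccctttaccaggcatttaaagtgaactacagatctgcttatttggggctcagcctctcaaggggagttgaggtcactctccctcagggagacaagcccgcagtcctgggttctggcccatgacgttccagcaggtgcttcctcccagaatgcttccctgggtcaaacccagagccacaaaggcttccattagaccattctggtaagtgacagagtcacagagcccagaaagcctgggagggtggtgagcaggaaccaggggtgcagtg
Vpreb2: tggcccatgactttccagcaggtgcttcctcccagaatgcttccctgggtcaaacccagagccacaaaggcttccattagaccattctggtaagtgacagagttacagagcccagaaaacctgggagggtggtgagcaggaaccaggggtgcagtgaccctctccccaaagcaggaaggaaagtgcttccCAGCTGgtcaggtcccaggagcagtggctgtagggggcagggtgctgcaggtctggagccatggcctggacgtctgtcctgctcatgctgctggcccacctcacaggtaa
The Igll1 window held 1 EBF core and 1 CAGCTG, the Vpreb2 window held 1 CAGCTG, and neither of these 2 motifs was found in the Vpreb1 window. Of 32851 RefSeq promoter windows of the same length, 13.7% held the EBF core and 16.3% held CAGCTG. Such matches are thus common, and a match in letters does not show a bound site. RefSeq windows were found for 13 of 16 B-lineage genes looked up.

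Members were rarer in the library labelled Utx-deleted. The stages did not share this evenly: surrogate light chain-high cells were fewer and mature-marker cells were not. All members together were 1.04% of kept control cells (exact binomial 95% interval 0.819 to 1.31%) and 0.502% (0.35 to 0.698%) of kept cells in the other library, a 2.08-fold lower share. Surrogate light chain-high cells made up 0.845% (60 cells, 0.646 to 1.09%) against 0.201% (14 cells), 4.21-fold lower. Mature-marker cells made up 0.183% (13 cells, 0.0976 to 0.313%) against 0.187% (13 cells), so the shares of this stage differed by less than counting error. The 2 sets of 13 cells were not alike. Cycling cells, described further on, were 1 of 13 and 4 of 13, and 0 of 13 and 3 of 13 held Il7r. Cells with neither were 1 of 7098 control cells and 8 of 6970 cells, or 0.0141% (0.000357 to 0.0785%) against 0.115% (0.0496 to 0.226%). Intervals throughout cover counting error alone and say nothing of the spread between mice.

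Seen as parts of the B-lineage compartment, surrogate light chain-high cells were 81.1% of the control members (70.3 to 89.3%) and 40% (23.9 to 57.9%) of the members in the library labelled Utx-deleted. These intervals did not overlap. With Hashtag1 alone the shares were 72.7% (49.8 to 89.3%) and 37.5% (8.52 to 75.5%), and the intervals overlapped. With Hashtag2 alone they were 84.6% (71.9 to 93.1%) and 40.7% (22.4 to 61.2%), without overlap. After each cell had been thinned to 2000 UMIs the members were 0.865% and 0.421% of cells, and those that kept at least 1 surrogate light chain UMI, in place of 5, were 0.706% and 0.16%.

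The 2 hashtags gave different shares within each library. Of the control cells with Hashtag1, 22 of 3375 (0.652%) were members, against 52 of 3674 (1.42%) of those with Hashtag2. The library labelled Utx-deleted had 8 of 3256 (0.246%) and 27 of 3674 (0.735%). Surrogate light chain-high cells were 0.474% against 0.0921% with Hashtag1 (16 and 3 cells, 5.15-fold lower) and 1.20% against 0.299% with Hashtag2 (44 and 11 cells, 4-fold lower). So the lower share stood with either hashtag, while Hashtag2 held more members than Hashtag1 in both libraries. Mature-marker cells were spread more evenly, with 6 and 7 control cells and 5 and 8 cells of the other library on Hashtag1 and Hashtag2. The 9 cells with neither carried Hashtag2 without exception, at 0.0272% of control and 0.218% of the other library's Hashtag2 cells, where 0 of 3375 and 0 of 3256 cells with Hashtag1 allow shares of up to 0.0889% and 0.0921%.

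**Figure D2:**
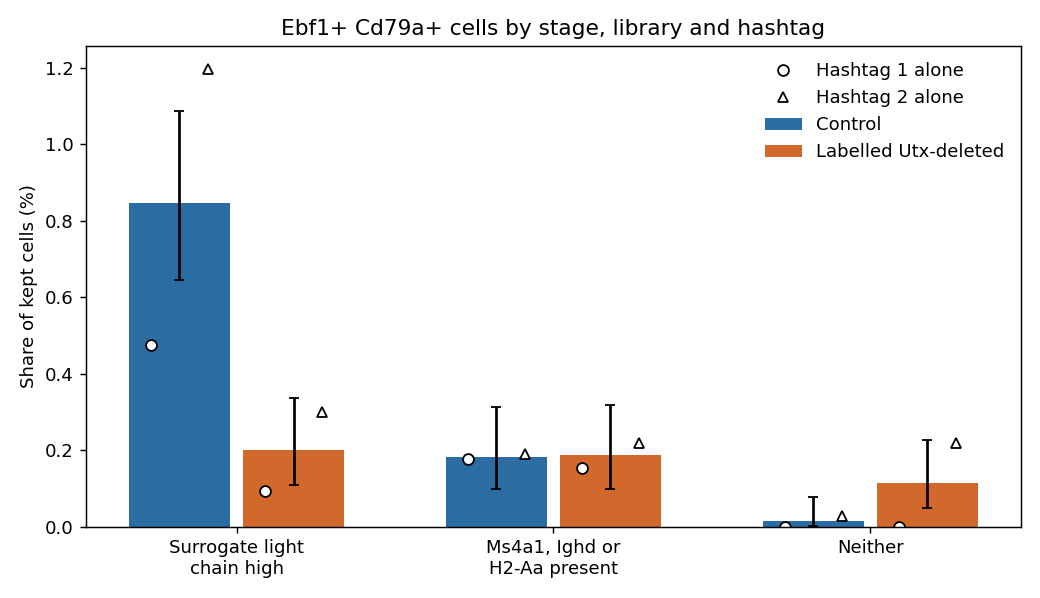
Bars give the share of kept cells (%) in each stage of the Ebf1+ Cd79a+ cells in control (blue) and labelled Utx-deleted (orange) cells, with exact binomial 95% intervals; circles and triangles give the share among cells of Hashtag1 and Hashtag2 alone. The surrogate light chain-high bar falls from 0.845% to 0.201%, the mature-marker bars stand at 0.183% and 0.187%, and triangles lie above circles in each stage.

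Depth differed between stages more than between libraries. Gene UMIs per cell had medians of 18588 and 22953 in the surrogate light chain-high cells (control first), 4590 and 5038 in the mature-marker cells and 3583 and 3073 in those with neither. Over the whole series the medians of kept cells were 12450.5 and 11363 UMIs. The libraries shared 17 cell barcodes, 14 of them kept, and 0 members had one of them. Scrublet, a doublet caller, placed 2 of 74 and 2 of 35 members among its 6% highest scores.

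Near the limits of the rule, the 1 control member just inside had 2 Ebf1 and 1 Cd79a UMIs, and it also held 3 of Pax5. In the library labelled Utx-deleted 3 members had a single Cd79a UMI, with 12, 31 and 71 of Ebf1. Just outside, 5 control cells had 0 of Cd79a and 120, 2, 75, 9 and 93 of Ebf1; surrogate light chain UMIs in them were 7, 1, 8, 1 and 18. The other library had 2 such cells, with 10 and 33 Ebf1 UMIs, and 2 cells with a single Ebf1 UMI. Of those 2, 1 held 4 UMIs of Cd79a, 31 of Cd74 and 4713 of Igkc among 12271 gene UMIs, so an Igkc-rich cell of this library lay outside the rule by 1 Ebf1 UMI, while an Igkc-rich control cell with 7 Ebf1 UMIs lay inside.

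Transcription factors of the B lineage were present in every stage, though not in the same balance. Ebf1, the factor that specifies the lineage and that chose the cells, ran from 11.9 to 284 UMIs per 10000 in the 60 control surrogate light chain-high cells, median 74.3, and from 46.6 to 305, median 95, in the 14 of the other library. The mature-marker cells had less of it, from 2.81 to 49.2 (median 25.2) and from 9.54 to 103 (median 31.7). Ranges of the 2 libraries overlapped in both stages. Pax5, which commits cells to the lineage and took no part in the rule, was detected in 60 of 60 and 14 of 14 surrogate light chain-high cells, in 12 of 13 and 13 of 13 mature-marker cells, and in 9 of 9 cells with neither. By contrast 0 of 348 control and 0 of 70 Flt3+ progenitors had a Pax5 UMI, which allows shares of cells with a UMI, not of cells that express the gene, of up to 0.862% and 4.29%, although those cells were deeper (medians 26903 and 22793 UMIs). Among granule-rich cells, set beside them as cells of another lineage, 21 of 5390 (0.39%) and 9 of 5412 (0.166%) had one at medians of 9823 and 9712 UMIs. In the granule-rich cells 6 and 3 also met the Ebf1 and Cd79a limits of the rule, and the source of these UMIs was not tested.

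Lef1 and Erg, factors of the early B stages, were higher in the control surrogate light chain-high cells than in the other control members. Pooled over cells, Lef1 was at 1362 CPM in the control surrogate light chain-high cells and 23.1 CPM in the 14 other control members, a log2 ratio of 5.30 (interval 4.03 to 8.93). Erg was at 502 against 11.5 CPM (log2 ratio 4.45, 2.96 to 10.75). In the library labelled Utx-deleted Lef1 was at 1127 against 122 CPM (3.12) and Erg at 376 against 22.9 CPM (3.63), and of the 8 cells with neither set there, 5 held Lef1, 15 UMIs in all (552 CPM). Ikzf3 (Aiolos), a factor of later stages, went the other way in the control, at 8.10 against 739 CPM (-6.38, -7.70 to -5.50), as did Irf4 at 27 against 242 CPM (-3.19). Of the 21 Irf4 UMIs on the low side 17 came from a single Jchain-rich cell described further on, without which the low side was at 64.9 CPM and the log2 ratio at -1.54. Foxo1, needed for Rag expression, was at 310 and 300 CPM, with a log2 ratio of -0.01 (-0.53 to 0.68), or -0.44 without that cell.

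Receptor components divided the stages into a pre-B receptor set and a mature receptor set. Per cell, Igll1 ran from 4.74 to 36.2 UMIs per 10000 in the control surrogate light chain-high cells (median 11.5) and Vpreb1 from 3.72 to 84.8 (median 20.3). In the library labelled Utx-deleted Igll1 ran from 2.65 to 37.3 (median 10.5) and Vpreb1 from 3.61 to 54.7 (median 11.2). The 2 libraries overlapped over most of these ranges, with the lower Vpreb1 median in the library labelled Utx-deleted. Vpreb3, an endoplasmic reticulum protein that associates with the receptor chains, was not part of the split and was found in 60 of 60 and 14 of 14 of these cells, and in 6 of 13 and 10 of 13 mature-marker cells. Cd79a, the signalling chain in the rule, had medians of 9.71 and 6.24 UMIs per 10000 in the surrogate light chain-high cells and of 24 and 12.4 in the mature-marker cells, control first.

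The last 300 bases of the Vpreb1 and Vpreb2 transcripts share 72.5% of aligned positions, and those of Iglc2 and Iglc3 94%. How the authors' counting divided reads between such genes was not tested.

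Igkc, the constant region of the kappa light chain, was found in 12 of 13 control mature-marker cells, at 0 to 9500 UMIs with a median of 42, and in 11 of 13 of the other library, at 0 to 162 with a median of 38. Among surrogate light chain-high cells 9 of 60 and 3 of 14 had any. Thinned to 2000 UMIs per cell, the expected shares with an Igkc UMI were 3.39% and 2.34% in those cells and 92.3% and 91.6% in the mature-marker cells, the last over 12 cells since 1 of the 13 had under 2000 UMIs. Ms4a1, one of the 3 genes that define the mature-marker cells, was at 0 UMIs in all 74 surrogate light chain-high cells. Cd74, the MHC class II chaperone, which was not in that definition, was present at 5 or more UMIs in 12 of 13 and 11 of 13 mature-marker cells, against 1 of 60 and 0 of 14 surrogate light chain-high cells.

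A single control cell dominated the pooled immunoglobulin values of its stage. It carried 24955 gene UMIs, of which 38.1% were Igkc (9500) and 1834 were Jchain, a joining chain of secreted immunoglobulin, with 9 UMIs each of the plasma cell factors Prdm1 and Xbp1. It held 7 UMIs of Ebf1, 10 of Cd79a and 0 of Pax5. With this cell the control mature-marker cells stood at 119457 CPM of Igkc and 26290 CPM of Ighm, and without it at 7214 and 2617 CPM, beside 7309 and 2742 CPM in the other library.

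**Figure D3:**
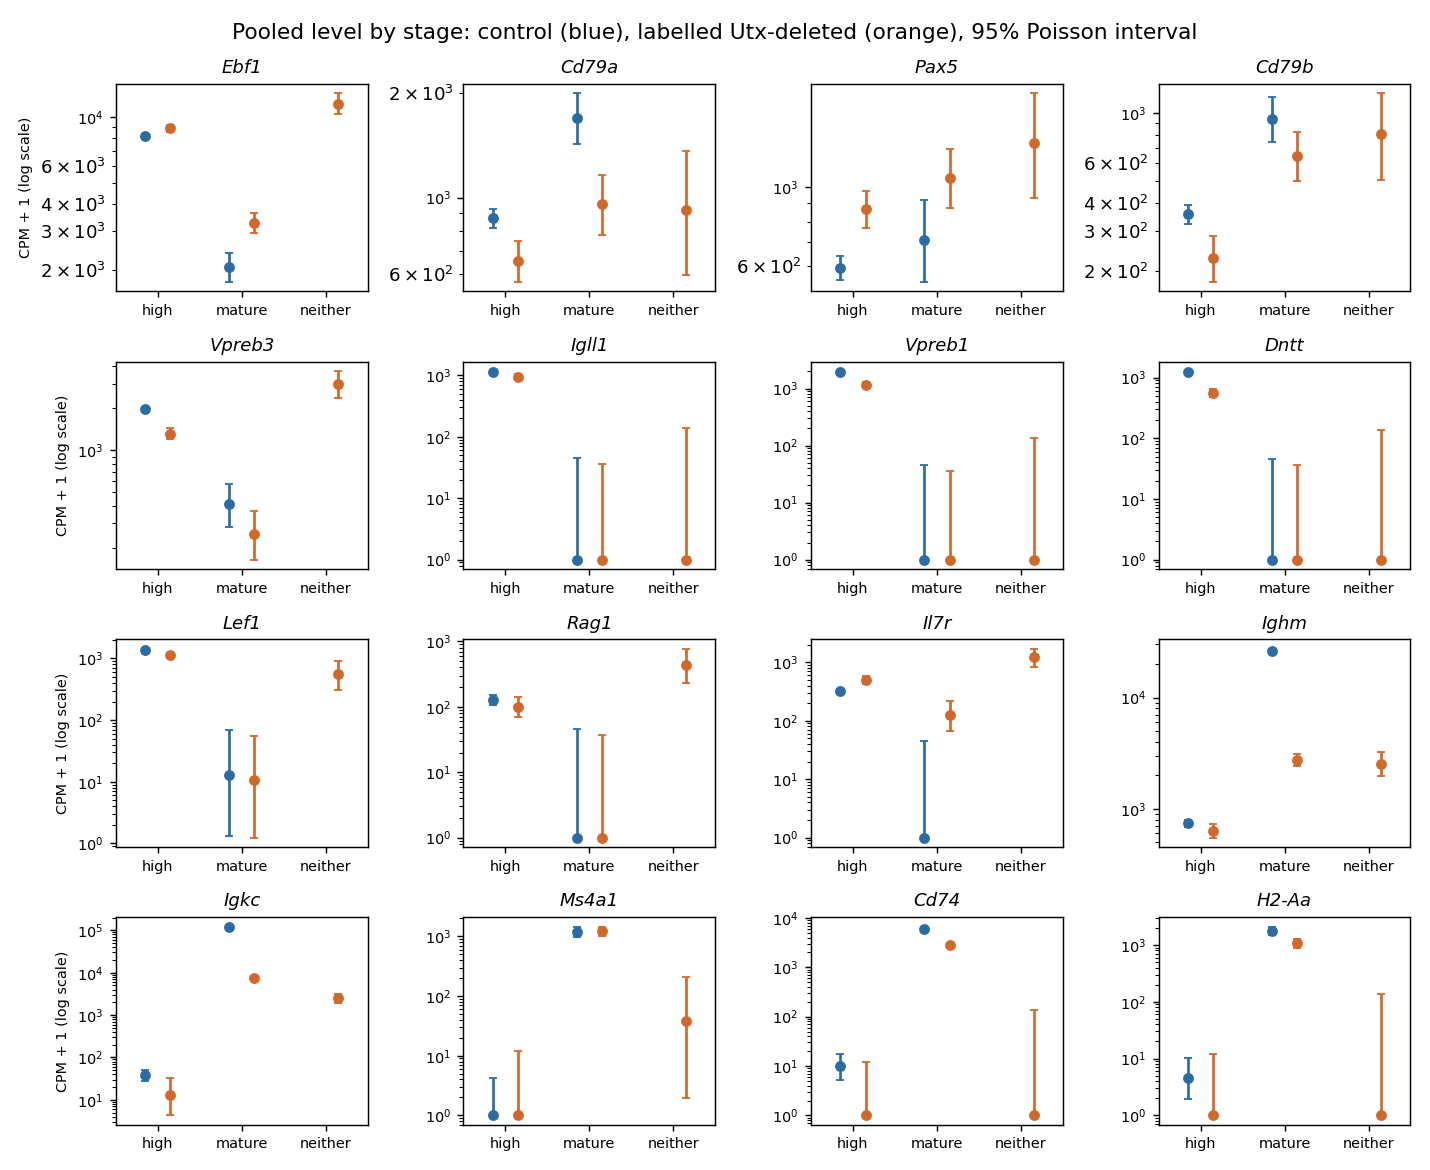
Pooled levels of 16 genes as CPM + 1 on log axes by stage (surrogate light chain high, mature-marker, neither), control in blue and the library labelled Utx-deleted in orange, with 95% Poisson intervals; the single control cell with neither is left out. Igll1, Vpreb1 and Dntt stand at 0 outside the surrogate light chain-high cells, Ms4a1 and Cd74 are highest in the mature-marker cells, and the control Ighm and Igkc values there include the Jchain-rich cell.

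Of the recombination genes, Dntt was found mainly in surrogate light chain-high members, whereas Rag1 or Rag2 was also detected in most of the cells with neither set. Dntt, the terminal transferase, reached at least 2 UMIs in 57 of 60 control and 13 of 14 surrogate light chain-high cells of the other library, and was at 0 in all 26 mature-marker cells and in the 8 cells with neither of the other library, with 1 UMI in the control cell with neither. In Flt3+ progenitors 62 of 348 (17.8%) and 2 of 70 (2.86%) reached it. The Flt3+ sets of the 2 libraries differed in make-up, since 17 of 348 (4.89%) and 23 of 70 (32.9%) held at least 5 Cd74 UMIs, and the part of this in the other shares was not tested. Dntt was not restricted to the members: the 9 control cells with at least 2 UMIs of Siglech, a marker of plasmacytoid dendritic cells, held it without exception, at 1045 CPM (916 to 1187), with 0 UMIs of Ebf1 and Cd79a. Rag1 or Rag2, the recombinase subunits, was detected in 53 of 60 and 13 of 14 surrogate light chain-high cells and in 0 of 13 and 0 of 13 mature-marker cells, compared with 19 of 348 (5.46%) control Flt3+ progenitors. Thinned to 2000 UMIs, an expected 39% and 36% of the surrogate light chain-high cells and 69.3% of the 8 cells with neither kept a Rag UMI. Mature-marker cells, with 0 Rag UMIs before thinning, were at 0% in the control (13 cells). They were at 0% in the other library (12 cells, with 1 left out).

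Il7r, the interleukin 7 receptor chain, was detected in 45 of 60 control surrogate light chain-high cells, from 0 to 34 UMIs per 10000 with a median of 1.94. The library labelled Utx-deleted had it in 13 of 14, from 0 to 24.1 with a median of 7.03. The ranges overlapped, the 14 cells had the higher median, and the expected shares after thinning to 2000 UMIs were 37.8% and 64.2%. Among mature-marker cells 0 of 13 and 3 of 13 had an Il7r UMI.

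The 8 cells with neither set in the library labelled Utx-deleted combined recombinase with light chain transcripts. Rag1 or Rag2 was found in 6 of the 8, Il7r in 7, and at least 3 UMIs of light chain constant genes in 7, at 2528 to 5847 gene UMIs per cell. Pooled levels were 442 CPM for Rag1, 1214 CPM for Il7r and 2502 CPM for Igkc, with 0 UMIs of Dntt, Igll1, Vpreb1 or Cd74. Bach2, a repressor that restrains plasma cell differentiation, was at 12730 CPM and 21 to 64 UMIs per cell, beside 1402 CPM in the surrogate light chain-high and 2143 CPM in the mature-marker cells of the same library. Il2ra (CD25), the classical surface marker of small pre-B cells, had 6 UMIs in 5 of the 8. The single control cell of this kind likewise had Rag1 (3 UMIs), Bach2 (46) and Iglc1 (4), with 1 UMI of Dntt and 0 of Il7r.

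Across all genes, the split by surrogate light chain in the control library separated 60 from 14 members. Of 7156 genes with at least 20 UMIs over both sides and outside the split itself, 1671 (23.4%) were higher by 2-fold or more and 1057 (14.8%) lower by as much in the surrogate light chain-high cells, so 61.3% of these differences were higher. Leaving out the Jchain-rich cell turned that balance to 1185 higher and 1546 lower, or 43.4% higher. With 86617 UMIs on the low side the counting error of single genes is wide, and these numbers include differences that counting error alone would give.

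Among the 10 highest ratios stood Arpp21 (624 CPM against 0 UMIs, at least 18.0-fold higher), Dntt (1215 against 11.5 CPM), Lef1 and Cdk6 (at least 16.5-fold higher), together with the proliferation genes Pclaf (at least 26.8-fold higher), Stmn1, Hist1h2ap, Hist1h4d and Cks1b. The 10 lowest were Jchain, Igkc, Ms4a1 (at least 423-fold lower), Igkv8-27, Iglc2, Iglc1, H2-Eb1, Cd74, Gm30211 and H2-Aa, a set to which the Jchain-rich cell gave much. On the low side it held all 1834 UMIs of Jchain and 78 of Igkv8-27, 9500 of 9919 of Igkc and 63 of 87 of Gm30211, and without it the log2 ratio of Igkc went from -11.53 to -7.46 and that of Gm30211 from -9.14 to -7.82. Bounds are against 3 UMIs over the cells summed.

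Described by list, 9 of 10 tested pro-B genes were at least 2-fold higher in the surrogate light chain-high cells and 0 lower, with a median log2 ratio of 3.67 against 0.14 over all genes tested. The 15 S-phase genes (median 2.85) and the 15 G2/M genes (median 4.03) were all higher. In contrast, 11 of 11 tested immature and mature B-cell genes were lower (median -5.88). B-lineage transcription factors were divided, with 7 of 20 higher and 6 lower (median -0.15). The higher ones include Ebf1 (log2 ratio 1.77), whose UMIs chose the cells, so the counts of this list are a description. Without the Jchain-rich cell 7 of 10 pro-B genes (median 3.18), 12 of 15 S-phase genes (2.36) and 15 of 15 G2/M genes (3.63) were higher, 11 of 11 mature genes were lower (-6.34), and transcription factors stood at 5 higher and 8 lower, with a median of -0.12 over all genes. In the library labelled Utx-deleted, where the low side held 21 cells, 12.2% of 4365 genes were 2-fold higher and 12.6% lower; there 4 of 9 pro-B genes were higher and 11 of 11 mature genes lower, while 8 of 14 S-phase and 5 of 15 G2/M genes were higher.

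Cycling divided the surrogate light chain-high stage itself. Cells in which 15 G2/M genes made up at least 0.2% of UMIs, a limit set after the values were seen, were 35 of 60 control cells (58.3%, 44.9 to 70.9%) and 8 of 14 (57.1%, 28.9 to 82.3%) in the library labelled Utx-deleted, with 10 and 2 cells lying between 0.1% and 0.3%. They were deeper than the rest, with medians of 21774 against 7522 UMIs in the control. Of 6855 genes tested there, 496 (7.24%) were at least 2-fold higher and 400 (5.84%) lower in the cycling cells. Rag1 was at 86.7 CPM in cycling and 249 CPM in other control cells (log2 ratio -1.52, -2.02 to -1.02), Rag2 at 68.9 and 134 CPM (-0.97), and Vpreb1 at 1612 and 3024 CPM (-0.91, -1.03 to -0.78). Dntt stood at 1217 and 1207 CPM, a log2 ratio of 0.01 (-0.17 to 0.20), and Il7r at 325 and 293 CPM (0.14, -0.22 to 0.53). In the library labelled Utx-deleted the corresponding ratios were -1.97 for Rag1, -1.09 for Vpreb1 and -1.39 for Dntt, over 8 and 6 cells.

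Few mature-marker cells cycled in the control (1 of 13), whereas 4 of 13 did in the library labelled Utx-deleted, with Hashtag2 on each of the 4. Mki67 in this stage had 3 UMIs in 2 control cells and 70 in 5 cells of the other library, and Top2a had 5 and 74. The 4 cells held 12374 to 17303 gene UMIs, deeper than the stage median of 5038, and 3 of them carried Il7r, at 1 to 7 UMIs.

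Antibody tags, which the rule did not use, differed in their medians between the members and most other cells and between the stages. B220, the CD45 isoform of B cells, had a median of 1749 per 10000 tag UMIs (hashtags left out) in the control surrogate light chain-high cells, range 1057 to 3127. In the library labelled Utx-deleted it had a median of 1296, range 404 to 2810. Mature-marker cells had more, with medians of 5306 and 3949, and lowest cells at 179 (the Jchain-rich cell) and 83.9, so the ranges of the stages overlapped. Flt3+ progenitors were at 102 and 93.6 and granule-rich cells at 34.7 and 19, so medians of the surrogate light chain-high cells lay above both. The 9 Siglech+ control cells had a B220 median of 371 and reached 1128, which overlaps the lower part of the members' ranges.

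CD127, the protein of Il7r, was at medians of 359 and 358 in the surrogate light chain-high cells (ranges 76.5 to 993 and 181 to 674), against 34.8 and 68 in the mature-marker cells and 23 and 20.5 in Flt3+ progenitors. The 2 libraries thus had nearly the same CD127 median, beside the different Il7r medians given above. CD48 was at 7015 and 7345 in the surrogate light chain-high cells, 3135 and 3262 in the mature-marker cells and 7086 in the 8 cells with neither.

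CD117 (Kit), on which the cells were sorted, had lower medians in both stages than in Flt3+ progenitors. In the surrogate light chain-high cells its medians lay above those of granule-rich cells. Its median was 213 in the control surrogate light chain-high cells (65.3 to 729) and 133 (38.6 to 471) in the library labelled Utx-deleted, compared with 1284 and 831 in Flt3+ progenitors and 99.3 and 56.3 in granule-rich cells. Mature-marker cells had 45 and 85.9. Kit transcripts were at 25 CPM in the control members and 235 CPM in the control Flt3+ progenitors.

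**Figure D4:**
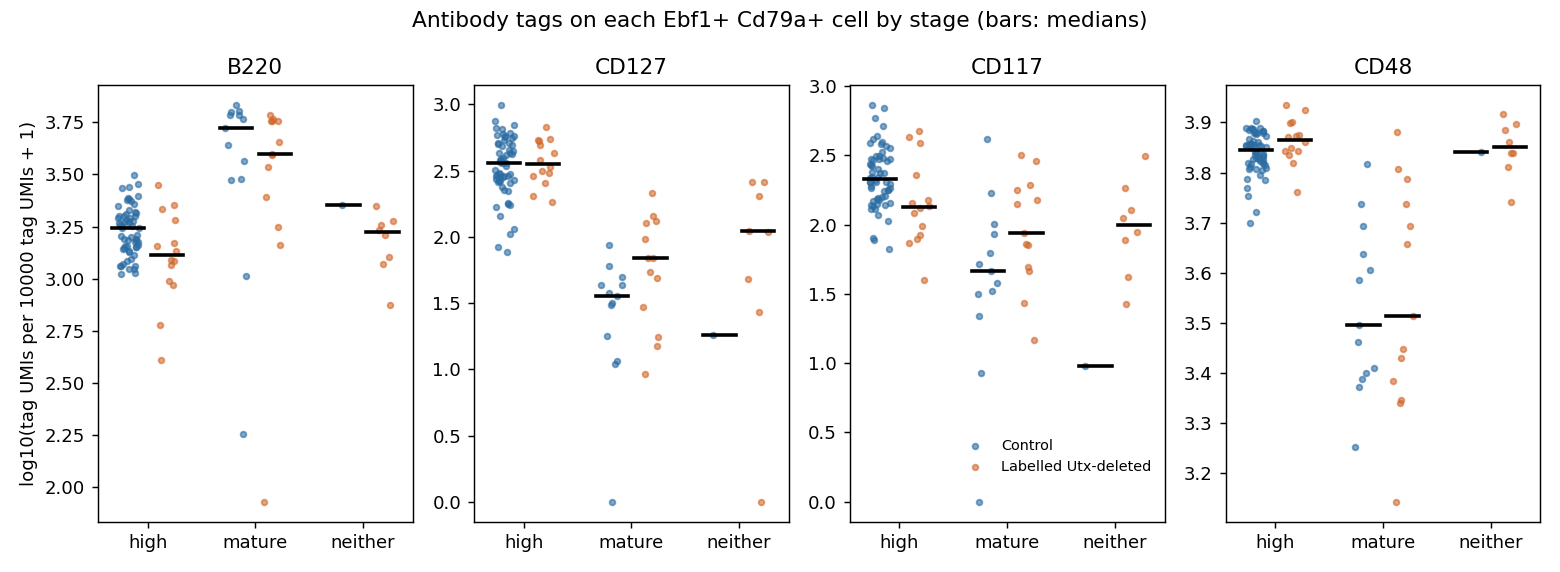
Each point is 1 Ebf1+ Cd79a+ cell, plotted as log10 of tag UMIs per 10000 tag UMIs plus 1 for B220, CD127, CD117 and CD48, by stage and library, with bars at medians. B220 is highest in the mature-marker cells (medians 5306 and 3949 per 10000) and CD127 in the surrogate light chain-high cells (359 and 358).

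Against other kept control cells, the highest ratios in the members belonged to a mixture of B-lineage and other genes. Of 15183 genes with at least 20 UMIs, leaving out those of the rule, 4276 (28.2%) were at least 2-fold higher in the members and 1934 (12.7%) lower, around a median log2 ratio of 0.46 over all genes tested. TMM scaling, which centres the genes, brought that median to 0.04 and the counts to 2823 and 2708, so the share of higher differences went from 68.9% to 51.0%. Apart from the genes of the rule, the 15 highest ratios included Vpreb2 (326 against 0.293 CPM, log2 ratio 10.08), Cecr2, Vpreb3, Gfra2, Pax5 and Igll1. They also held Gm32569, Enpep, Mzb1, Gm37065, Tnfrsf19 and Gm12158. Cecr2, a chromatin remodelling protein, had 858 UMIs in 63 members and 76 in 24 other cells. The lowest ratios belonged to genes of neutrophils such as Abca13, Mmp9, Hp and Chil3, in cells from which the rule removes granule gene expression.

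Flt3+ progenitors served as the population to compare with. These were 348 kept control cells with at least 2 Flt3 UMIs, under the same granule limit and outside the members. They were not chosen by other lymphoid genes: 14 of 348 (4.02%) held Il7r and 62 of 348 (17.8%) at least 2 UMIs of Dntt. Of 11943 genes tested, 1068 (8.94%) were at least 2-fold higher in the members and 1970 (16.5%) lower. Receptor components were higher in 11 of 11 tested, pro-B genes in 11 of 12 (median log2 ratio 5.03 against -0.10 over all genes), and B-lineage transcription factors in 10 of 19, with 1 lower. Pax5 had 719 UMIs in the members and 0 in the Flt3+ progenitors, at least 1949-fold higher, and Lef1 1516 UMIs against 1 (log2 ratio 12.59). Rag1 (119 against 0.205 CPM) and Il7r (295 against 6.98 CPM) were 8.61 and 5.38 higher on the log2 scale.

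Dntt and Vpreb1 UMIs were also found in Flt3+ progenitors. Dntt stood at 1128 against 113 CPM and Vpreb1 at 1813 against 4.62 CPM, with Vpreb1 in 35 of the 348. Any surrogate light chain UMI was found in 38 of 348 (10.9%) control and 4 of 70 (5.71%) Flt3+ progenitors of the other library, beside 90 of 5390 (1.67%) and 39 of 5412 (0.721%) granule-rich cells, which were shallower (medians given above). None of those 348 cells reached 5 surrogate light chain UMIs, which allows a share of up to 0.862%. Early lymphoid genes lay lower in the members for 6 of 9 tested (median -1.93), among them Flt3 itself (16.7 against 226 CPM, used to choose the progenitors), Cd34 (1.67 against 342 CPM) and Lmo2 (-4.26). Meis1, a stem and progenitor factor, was at 10.9 against 387 CPM (-5.05). In the interleukin 7 list 4 of 15 genes were higher, including Socs2 (5.77), and 3 lower, including the survival gene Bcl2 (-3.23) and Myc (-2.10); 3 of 15 is near the 16.5% of all genes that were lower.

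Markers of most other lineages made up small shares of the members' UMIs. Megakaryocyte genes were at 0 UMIs (0 of 4 genes in both libraries), as were the defining markers Siglech, Cd3e, Trbc2, Klf1 and Cpa3. The 6 granule genes, which the rule keeps under 1% in every member, made up 0.140% and 0.173% of member UMIs. The 4 neutrophil progenitor genes, which the rule did not use, each had UMIs, in all 157 in the control members (Prtn3 46, Ctsg 45, Mpo 34 and Elane 32) and 41 in the others, or 0.0131% and 0.00889%. Of the stem cell list, Meis1 had 13 and 23 UMIs and Mecom 0, and the list made up 0.00109% and 0.00521%. The other lists stood as follows: the dendritic list 0.0104% and 0.00803%, the monocyte list 0.00885% and 0.0143%, and the T and NK list 0.00134% and 0.000868%.

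Within the surrogate light chain-high stage the number of genes past 2-fold between the 2 libraries varied with the way of counting. Of 7564 genes tested, 289 (3.82%) were at least 2-fold higher and 317 (4.19%) lower in the 14 Utx-deleted-labelled cells than in the 60 control cells. At a minimum of 50 UMIs, which tests fewer genes, the counts were 65 and 111, and with equal weight for each cell 520 and 563. These are counts and not shares of the genes tested, so they do not show whether the share past 2-fold rose or fell. Ebf1 was nearly the same (8897 against 8219 CPM, log2 ratio 0.11, 0.05 to 0.17), and Pax5 was higher at 866 against 591 CPM (0.55, 0.35 to 0.75). Among B-lineage transcription factors 1 of 19 was past 2-fold, namely Ikzf3, whose 13 UMIs came from a single cell.

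Dntt was at 557 against 1215 CPM, a log2 ratio of -1.12 (-1.35 to -0.90). Per cell it ran from 0 to 23.5 UMIs per 10000 (median 5.07) in the library labelled Utx-deleted and from 0 to 35 (median 10.8) in the control, and the ranges overlapped. The ratio was -2.39 with Hashtag1 alone (3 against 16 cells), -0.81 with Hashtag2 alone (11 against 44) and -0.83 when each cell had the same weight, so it was past 2-fold in the pooled sum and not in the last 2 of these.

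Mzb1, a chaperone that assists immunoglobulin assembly, was at 294 against 856 CPM (log2 ratio -1.53, -1.86 to -1.24). Per cell the 60 control cells ran from 1.02 to 42.7 UMIs per 10000 with a median of 8.72, and the 14 others from 0 to 8.01 with a median of 3.12, so the highest of the latter lay below the control median. It was at 431 against 787 CPM with Hashtag1 and 247 against 886 CPM with Hashtag2, lower with either.

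The surrogate light chain genes themselves, whose sequences are given above, differed by unequal amounts. Vpreb2 was at 124 against 352 CPM (log2 ratio -1.47, -2.0 to -1.04; -0.82 with equal weight for each cell), Vpreb1 at 1175 against 1954 CPM (-0.73, -0.89 to -0.58) and Igll1 at 942 against 1110 CPM (-0.23). Vpreb3 and Cd79b, neither of them used by the rule or the split, stood at -0.57 and -0.63. Among 12 pro-B genes, which include Igll1 and Vpreb1 of the split, 2 were lower, Dntt and Bok, and the median was -0.29 against 0.04 over all genes. Rag1 (100 against 126 CPM, -0.30) and Rag2 (81.8 against 84.6 CPM, -0.01) had intervals that included 0.

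Higher in the library labelled Utx-deleted were Ly6d (282 against 118 CPM, log2 ratio 1.26), a lymphoid surface protein, and Bcl11a (485 against 263 CPM, 0.89, 0.60 to 1.17), a lymphoid factor. Ly6d did not mark the early stage among the members. Surrogate light chain-high cells had less of it than the other members, with log2 ratios of -4.34 in the control and -3.51 in the other library. Ly6d UMIs came from 7 of 14 and 17 of 60 cells and mostly from Hashtag2 in both libraries, whereas Bcl11a was higher with Hashtag1 (647 against 257 CPM) and with Hashtag2 (430 against 265 CPM). Meis1 had 19 UMIs in 10 of 14 cells against 13 UMIs in 9 of 60 (log2 ratio 2.27, 1.20 to 3.44), with at most 5 in a cell. Il7r was at 503 against 318 CPM (0.67, 0.39 to 0.93). S-phase and G2/M genes showed 0 of 15 and 0 of 15 past 2-fold (medians -0.08 and 0.23).

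**Figure D5:**
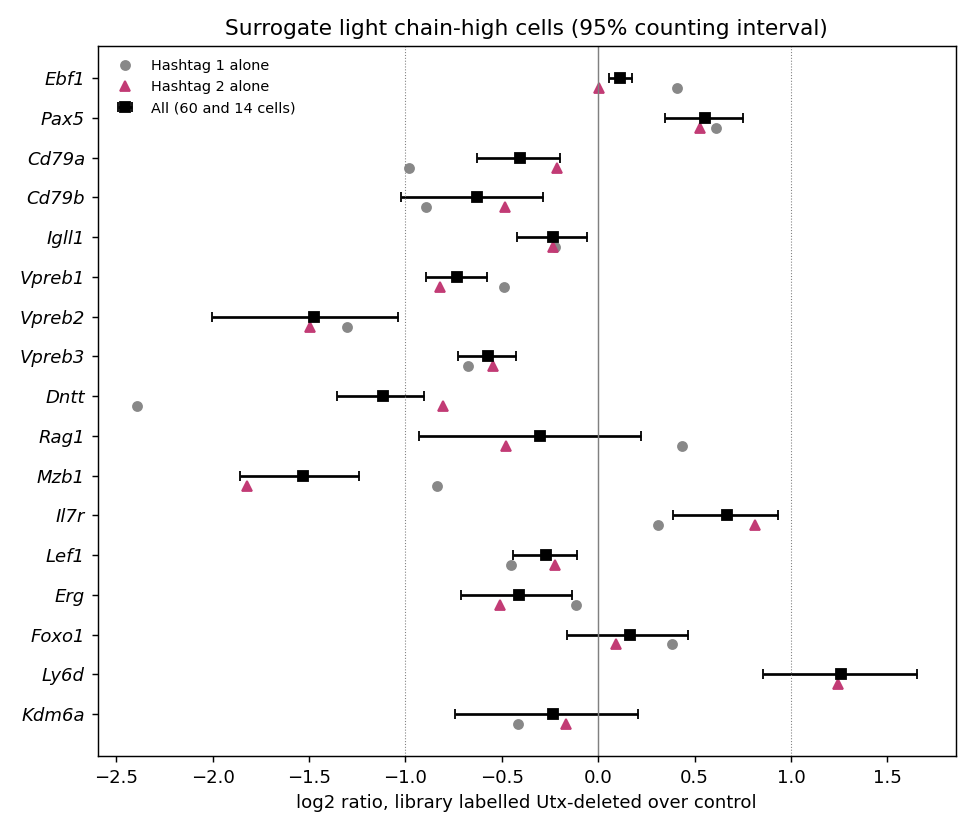
Squares give the log2 ratio of the library labelled Utx-deleted over the control in surrogate light chain-high cells for 17 genes, with 95% counting intervals, and circles and triangles give the ratio with Hashtag1 and Hashtag2 alone (no circle for Ly6d, which had under 20 UMIs there). Dntt, Mzb1 and Vpreb2 lie at or beyond -1 for all cells and Ly6d lies beyond 1. Dntt, Mzb1, Vpreb1, Vpreb2 and Vpreb3 are among the genes left of 0 with either hashtag, and others such as Cd79b are too.

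Among the 5 highest ratios in this stage with UMIs in at least 3 cells were Dach1, Pcdh11x, Tcf7l1 and Cdc42bpa, with 24, 108, 33 and 22 UMIs in 6, 3, 7 and 9 of the 14 cells. Of the 108 UMIs of Pcdh11x, 103 came from 1 cell. The 5 lowest, each with 0 UMIs there, were Nav2 (35 UMIs in 13 control cells, at least 3.47-fold lower), Nrg2, A630023P12Rik, Fndc3b and Dnajc6 (26 UMIs in 14 cells, at least 2.57-fold lower). Such low counts carry wide intervals.

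Over all members the library labelled Utx-deleted had 338 of 8070 genes (4.19%) at least 2-fold higher and 255 (3.16%) lower than the control, a comparison in which the stages are mixed in different proportions. The balance depended on the setting, with 298 higher and 329 lower under TMM scaling, 335 and 332 with 0.5 of a UMI added and 649 and 645 with equal weight for each cell. In it 3 of 12 immature and mature B-cell genes were higher and 0 lower, 3 of 6 small pre-B genes were higher and 1 lower, and 3 of 12 pro-B genes were lower and 0 higher. Without the Jchain-rich cell 5 of 6 small pre-B genes were higher and 0 lower. The highest ratios were Ralyl (107 UMIs in 3 cells, 97 of them in 1 cell), Pstpip2 (67 in 3), Apba1, Reln and Lmo7. Apart from Jchain, whose UMIs came nearly whole from a single cell, the lowest were Nav2, Nrg2, A630023P12Rik and Hebp1.

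In the mature-marker stage, with 13 cells on each side, 366 of 1744 genes (21%) were at least 2-fold higher and 115 (6.59%) lower in the library labelled Utx-deleted, around a median log2 ratio of 0.27 over all genes tested. Without the Jchain-rich cell in the control the counts were 254 and 171 of 1617 genes around a median of 0.013, so the share of higher differences went from 76.1% to 59.8%. All 7 tested G2/M genes were higher (median 3.83, or 3.32 without the Jchain-rich cell), beside the 4 cycling cells named above. Cd74 was at 2790 against 6070 CPM (log2 ratio -1.12, -1.33 to -0.91), with cells from 3.1 to 131 UMIs per 10000 (median 22.8) against 0 to 130 (median 59.7). The 4 cycling cells were among those low in Cd74, at 5 to 14 UMIs. Cd72, a coreceptor that restrains receptor signals, was at 676 against 72.3 CPM (3.02), and Bank1, an adaptor of receptor signalling, at 1033 against 2818 CPM (-1.44). Without the Jchain-rich cell the log2 ratios were -1.38 for Cd74, 2.51 for Cd72 and -1.96 for Bank1, each still past 2-fold. The immature and mature B-cell list had 2 of 12 genes lower and 0 higher (median -0.51) with that cell, and 6 of 12 lower and 0 higher (median -1.03) without it. This list includes Ms4a1, which helped to define the stage, so its counts are a description. Ms4a1 was at medians of 12.4 and 13 UMIs per 10000, the control second.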

How the data were processed

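Per the labels' protocols, the 10x Genomics 3-prime kit was used. Raw counts of UMIs were deposited per gene (32285) or antibody tag (15) and cell barcode; the authors made them with Cell Ranger 7.1.0 on mm10, per the submitters' processing notes; they are not normalized. The libraries held 7827 control barcodes and 7883 others. Filters removed 349 and 214 barcodes for genes or mitochondrial UMIs and 380 and 699 for carrying both hashtags. No barcode was removed as a doublet by a caller.

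UMIs were summed over cells and scaled to CPM with Python 3.11.15, numpy 2.4.6, scipy 1.17.1 and pandas 2.3.3. Log2 ratios had 1 UMI added to each sum, genes needed 20 UMIs, and intervals are exact Poisson or Clopper-Pearson at 95%. Pooled sums weight deep cells more. With 1 library per group no p-value was computed. Named genes are members of the lists, the highest and lowest ratios in each comparison (15 and 10, 10 and 10, 5 and 5), with minimums of 50 UMIs and, for the libraries compared, 20 UMIs from at least 3 cells. Some genes that this rule names are not reported here. The members, lists and tests were chosen with earlier results of these data known. The mature-marker stage, the cycling limit, leaving out the Jchain-rich cell, and the comparison within the surrogate light chain-high stage were added after the data were seen. Alternatives were stricter filters, thinning, TMM, equal cell weights, each hashtag alone and centred log-ratios of tags. Ratios were tested on simulated data, the results of which are not reported here.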

Additional observations from a re-analysis of the deposited data

How the results depend on the processing

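Of 66 recomputed shares 58 stayed within the main interval, and of 56 recomputed gene counts 45 stayed within 1.5 times the main count. Member shares were 0.652% and 0.246% with Hashtag1 alone and 1.42% and 0.735% with Hashtag2 alone. Surrogate light chain-high shares were 0.474% and 0.0921% with Hashtag1 alone, a difference of -0.382 points (main -0.644), and 1.20% in the control with Hashtag2 alone. With a minimum of 50 UMIs, 2813 genes were higher in members than in other control cells, and with TMM 2823 (main 4276). The same minimum left 412 genes lower in surrogate light chain-high than in other control members (main 1057). Between libraries it left 99 higher and 93 lower over all members (main 338 and 255) and 65 and 111 in the surrogate light chain-high stage (main 289 and 317); these alternatives test fewer genes. Equal weight for each cell gave 649 and 645 over all members and 520 and 563 in that stage, and the cause was not tested. As centred log-ratios, the log2 difference of members from other kept cells was 3.48 for CD48 (main 4.62), 4.78 for B220 (main 6.13) and -5.07 for CD11b (main -4.06) in the library labelled Utx-deleted; CD135 in the control turned from -1.91 to 0.16 and CD41 in the other library from -1.45 to 0.076, the cause of which was not tested. Among 558 recomputed values of named genes 545 were the same, 12 moved and 1 turned, Socs2 in the surrogate light chain-high stage with Hashtag1 alone (0.018, main -1.12). The 14 and 13 cells behind 2 stages of the library labelled Utx-deleted limit what can be told from single genes. No paired analysis was possible because each group had 1 library.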
